A study of Homo sapiens with 16 samples.

Results

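The genes described here are 48 genes of the extracellular matrix, chosen by symbol from the 26229 listed genes: 16 collagen chains, 9 laminin chains and basement membrane linkers, 6 matricellular proteins, 8 microfibril and other matrix proteins, 6 collagen-modifying enzymes and 3 cell-surface proteoglycans. RNA was sequenced from A431, an epidermoid carcinoma line, and HaCaT, an immortalised keratinocyte line. For each line there was 1 library with control siRNA (siCTRL), 3 with siRNA against YAP1 (siYAP), 1 with an empty vector and 3 with YAP5SA, a constitutively active mutant of YAP1, which makes 16 libraries in 8 groups. All cultures grew in DMEM with FCS. The labels carry 1 protocol for all 16 libraries, with siRNA transfections 24 h apart and RNA taken 48 h after the second one. The study's methods describe biological triplicates, whereas the labels list 1 library for each control group and do not say whether the 3 libraries of a treated group came from separate cultures. The p values measure the spread between these libraries, and each line was a single established line with 1 control library per arm.

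Epidermal cells rest on a basement membrane, a sheet in which a network of collagen IV and a network of laminin are joined by nidogens and by the proteoglycans perlecan and agrin. Anchoring fibrils of collagen VII tie this sheet to the fibrillar collagens of the dermis, which are made mainly by fibroblasts. New collagen chains are hydroxylated on proline and lysine inside the cell by enzymes of the P4H and PLOD families and are cross-linked outside it by lysyl oxidases. YAP is a transcriptional co-activator that binds DNA through TEAD factors, which recognise the letters CATTCC, and several matrix genes are known among its targets.

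Of the 48 genes, 41 passed the filter of a mean above 10 counts per library. POSTN, the gene of periostin, had 0 counts in all 16 libraries. The proteoglycan gene VCAN had at most 1 count. COL3A1, COL6A2, COL8A1, LAMA1 and THBS2 were also too low to test, with no library above 28 counts. Among the tested genes, COL1A1, COL13A1, FBN1 and LOX had a mean log2 CPM (logCPM) of 1 or below, where CPM are counts scaled to a common library depth, and could not be called by the rule used, which asks for an FDR under 0.05 and a logCPM above 1, so that 37 genes could be called. A count of 0 allows up to 3 counts, or 0.063 to 0.164 CPM in these libraries, which hold 18115600 to 46791700 assigned pairs. That limit covers counting error only.

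The labels were checked on YAP1 and on cell type markers. YAP1 was at 94.2 CPM with siCTRL and 5.04 to 6.99 CPM with siYAP in A431, and at 254 CPM and 21.6 to 23.2 CPM in HaCaT. With YAP5SA, whose transcript is counted together with endogenous YAP1, it was at 1494 to 3244 CPM in A431 against 124 CPM with the empty vector, and at 7546 to 22243 CPM in HaCaT against 423 CPM. The log2 fold change of YAP1 with YAP5SA was 4.36 (SE 0.65) in A431, where it was not past the threshold (edgeR FDR = 0.197). The 8 keratinocyte markers summed to 2900 to 7929 CPM and each was detected in every library. Of the fibroblast markers, COL1A2 had at most 1 count in any library, THY1 at most 3 and PDGFRB at most 5, but DCN reached 14.2 CPM and LUM 12.7 CPM. The 8 fibroblast markers summed to 18.2 to 22.2 CPM in the HaCaT siYAP libraries and 20.9 CPM with siCTRL, against 0.127 to 0.976 CPM in the HaCaT vector and YAP5SA libraries, and to 1.76 to 13.3 CPM in A431. Their part in the results was not tested. The 4 endothelial markers summed to 33.8 CPM in A431 and 59.1 CPM in HaCaT with siCTRL, to 18.3 to 21.9 CPM and at most 19.6 CPM with siYAP, and to at most 5.92 CPM in the vector arm, with CDH5 at up to 51.8 CPM and KDR at 4 counts or fewer, and their part in the results was not tested either. The 4 leukocyte markers summed to at most 0.414 CPM. In bulk samples a smaller number of cells of a type and less RNA per cell cannot be told apart.

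Levels of different genes were compared as CPM per kilobase of 1 transcript a gene, taken from GENCODE v29 as that with the longest coding part. On this scale SDC4, a syndecan that carries heparan sulfate at the cell surface, stood highest of the 48 genes in every group but HaCaT with YAP5SA, where THBS1 stood at 416 CPM per kb. SDC4 had 141 CPM per kb in the A431 siCTRL library and 131 CPM per kb in the HaCaT siCTRL library. In A431 with siCTRL it was followed by FBLN1 at 64.1, SDC1 at 63.3, LAMB1 at 59.8 and PLOD2 at 56.6 CPM per kb. In HaCaT with siCTRL it was followed by THBS1 at 56.3, MATN2 at 51.5, SDC1 at 50.2 and LAMC1 at 45.7 CPM per kb. The fibrillar collagens COL1A1, COL5A1 and COL5A2 were each under 1 CPM per kb in every control library. These orders come from 1 library each and have no replicate error.

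Loss of YAP was examined by setting siYAP against siCTRL. In A431, 4 of the 41 tested genes were called higher and 1 lower, beside 1.81% and 3.78% of all 14673 tested genes. In HaCaT, 4 were called higher and 2 lower, beside 2.37% and 3.3% of all tested genes. Over both lines together 7 were called higher and 2 lower, beside 5.3% and 7.68%. Of the members called higher, 0 were shared by the lines. Of all tested genes called higher 66 were shared, or 24.8% of the A431 and 19.0% of the HaCaT calls. With 4 member calls per line, 0 shared genes cannot be set apart from these shares. Of those called lower, PLOD2 was shared, beside 162 of all tested genes, or 29.2% and 33.5% of the calls. The median log2 fold change over the members was 0.42 in A431, with 31 of 40 above 0, and 0.32 in HaCaT, with 32 of 40 above 0, whereas the median of all tested genes was 0.03 in each line, with 52.7% above 0. With the genes that had 3 counts or fewer on 1 side set at their bound, the medians of the members were 0.40 and 0.30. Each line's values share 1 siCTRL library, so the genes of a line do not give separate evidence of direction.

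**Figure D1:**
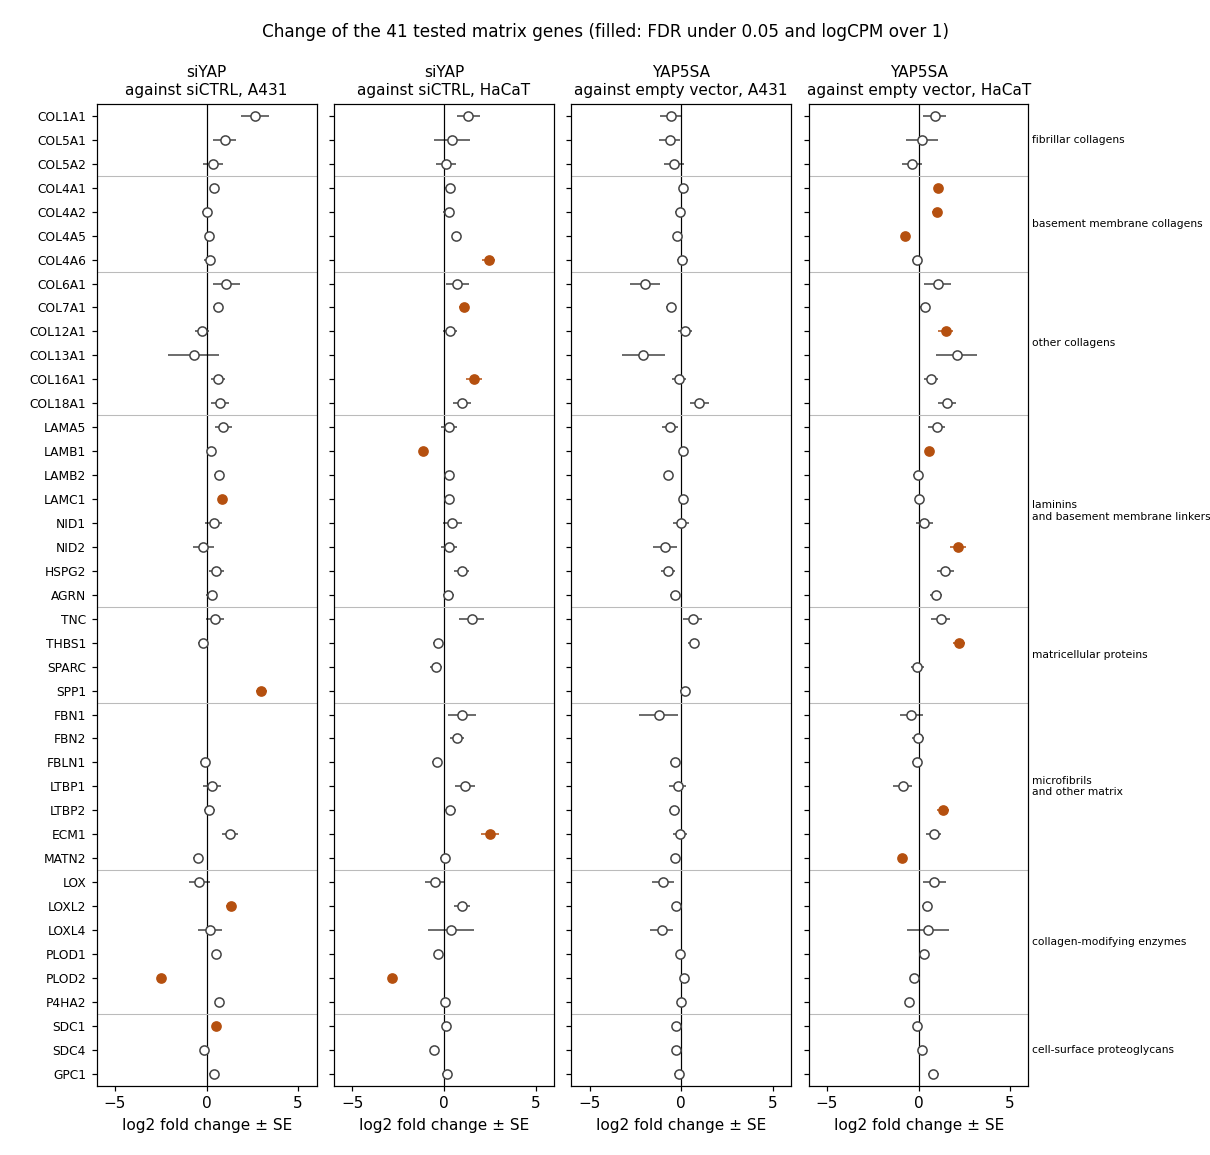
Log2 fold change with its standard error (x axis) of the tested matrix genes (y axis, grouped by role) for siYAP against siCTRL and YAP5SA against the empty vector in A431 and HaCaT, from 3 treated libraries and 1 control library each. Filled points are called genes, and genes with 3 counts or fewer in every library of 1 side are not plotted. PLOD2 lies at -2.48 and -2.82 with siYAP in A431 and HaCaT, and no point is filled for YAP5SA in A431.

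Among the collagen-modifying enzymes, PLOD2 fell in both lines. PLOD2 encodes the lysyl hydroxylase that acts on the telopeptides of fibrillar collagens. In A431 it was at 211 CPM under siCTRL against 34.7, 43.1 and 35.9 CPM under siYAP, a fold change of -2.48 on the log2 scale (SE 0.16, edgeR FDR = 1.73e-05). In HaCaT it was at 34.3 CPM under siCTRL against 5.69, 3.79 and 5.05 CPM under siYAP, a fold change of -2.82 on the log2 scale (SE 0.18, edgeR FDR = 1.11e-05). Every siYAP library lay below its control, and the effects of the lines differed by -0.34 (SE 0.26, HaCaT minus A431), which was not past the threshold (edgeR FDR = 0.677). With YAP5SA, PLOD2 was not called in either line. It was at 203 CPM with the empty vector against 219, 227 and 236 CPM with YAP5SA in A431. In HaCaT it was at 93.4 CPM against 75.3, 73.8 and 87.7 CPM, below the empty vector in each library. PLOD1, the lysyl hydroxylase of the triple helix, had a fold change of 0.50 on the log2 scale (SE 0.14, edgeR FDR = 0.058) in A431 and -0.35 (SE 0.14, edgeR FDR = 0.18) in HaCaT.

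LOXL2, a lysyl oxidase that cross-links collagen IV, rose in A431. It was at 28.7 CPM under siCTRL against 66.6, 66.2 and 80.9 CPM under siYAP, a fold change of 1.31 on the log2 scale (SE 0.27, edgeR FDR = 0.0141). The empty vector library of A431 stood at 57.5 CPM, near the siYAP libraries, and with siCTRL and the empty vector as 2 controls the change was 0.72 (edgeR FDR = 0.702). In HaCaT, LOXL2 was at 0.764 CPM under siCTRL against 1.74, 1.07 and 1.65 CPM under siYAP, but at 25.5 CPM with the empty vector, and with the 2 controls together it was called lower (-3.15, edgeR FDR = 0.0145). The call over both lines (log2 fold change 1.14, SE 0.25, edgeR FDR = 0.0113) turned to -1.21 with the 2 controls together (edgeR FDR = 0.113). P4HA2, a prolyl hydroxylase subunit, and LOXL4 were not called in either line. LOX was under the logCPM limit and could not be called.

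Among the laminins, LAMB1 fell in HaCaT and was not called in A431. LAMB1 encodes the beta 1 chain and LAMC1 the gamma 1 chain, which are joined in many laminins of basement membranes. In HaCaT, LAMB1 was at 95.2 CPM under siCTRL against 38.9, 48.6 and 40.1 CPM under siYAP, a fold change of -1.16 on the log2 scale (SE 0.13, edgeR FDR = 0.000426). In A431 it was at 345 CPM under siCTRL against 392, 405 and 416 CPM under siYAP, a fold change of 0.23 on the log2 scale (SE 0.14, edgeR FDR = 0.36). The siYAP libraries lay below the control in HaCaT and above it in A431. The difference between the effects, -1.39 (SE 0.20, HaCaT minus A431, edgeR FDR = 0.0183), was past the threshold, and LAMB1 was the 1 member called in this comparison, beside 0.123% of all tested genes called higher and 0.0477% called lower. It was not called without A431 siYAP replicate 2 (edgeR FDR = 0.0506), A431 siYAP replicate 3 (0.0701) or HaCaT siYAP replicate 3 (0.06). Its call as lower over both lines (-0.47, SE 0.10, edgeR FDR = 0.00741) is a mean of -1.16 in HaCaT and 0.23 in A431, of which the A431 value was not called.

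LAMC1 rose in A431, from 279 CPM with siCTRL to 522, 446 and 510 CPM with siYAP, a fold change of 0.82 on the log2 scale (SE 0.18, edgeR FDR = 0.0191). In HaCaT it was at 361 CPM under siCTRL against 405, 459 and 455 CPM under siYAP and was not called. All siYAP libraries lay above their control, and the change was called over both lines (0.55, SE 0.12, edgeR FDR = 0.0118). In A431 the call was lost without siYAP replicate 1 (edgeR FDR = 0.0546) or replicate 3 (0.057), and with the 2 controls together neither the A431 change (0.69, edgeR FDR = 0.0938) nor that over both lines (0.33, edgeR FDR = 0.0875) was called. LAMA5, LAMB2, NID1, NID2, HSPG2 and AGRN, which encode further laminin chains, the nidogens, perlecan and agrin, were not called with siYAP in either line.

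Among the collagens, COL4A6, COL7A1 and COL16A1 rose in HaCaT. COL4A6, a collagen IV chain, was at 4.59 CPM under siCTRL against 20.8, 31.2 and 22.8 CPM under siYAP, a fold change of 2.44 on the log2 scale (SE 0.35, edgeR FDR = 0.0016). COL7A1, the chain of anchoring fibrils, was at 28.7 CPM under siCTRL against 60.8, 57.0 and 67.3 CPM under siYAP, a fold change of 1.1 on the log2 scale (SE 0.29, edgeR FDR = 0.0388). COL16A1, a fibril-associated collagen, was at 2.18 CPM under siCTRL against 5.96, 6.02 and 8.29 CPM under siYAP, a fold change of 1.63 on the log2 scale (SE 0.43, edgeR FDR = 0.0408). Each siYAP library of HaCaT lay above the control for these genes. The calls of COL7A1 and COL16A1 in HaCaT were lost when any 1 of the 3 siYAP libraries was left out (edgeR FDR = 0.0552 to 0.0891) and when HaCaT was fitted alone. With the 2 controls together COL7A1 (1.36, edgeR FDR = 0.00455) and COL16A1 (1.49, edgeR FDR = 0.00878) were called in HaCaT.

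In A431 the same collagens lay above the control in every siYAP library but were not called. COL4A6 was at 11.9 CPM under siCTRL against 14.1, 12.9 and 13.2 CPM under siYAP. COL7A1 was at 27.9 CPM and 34.8, 43.7 and 51.6 CPM, and COL16A1 at 7.69 CPM and 9.28, 11.4 and 14.6 CPM. Over both lines all of them were called, with log2 fold changes of 1.31 (SE 0.23, edgeR FDR = 0.00309), 0.87 (SE 0.20, edgeR FDR = 0.0131) and 1.12 (SE 0.28, edgeR FDR = 0.0215). The fibrillar COL1A1 had 7 counts with siCTRL and 59, 72 and 56 with siYAP in A431, and 31 against 98, 65 and 172 in HaCaT, and stayed under the logCPM limit, though its FDR over both lines was 0.0202 (edgeR).

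Among the other proteins, SPP1 and SDC1 rose in A431 and ECM1 in HaCaT. SPP1 encodes osteopontin, a secreted integrin ligand. In A431 it was at 5.53 CPM under siCTRL against 52.9, 39.5 and 38.8 CPM under siYAP, a fold change of 2.98 on the log2 scale (SE 0.31, edgeR FDR = 0.00185). In all 8 HaCaT libraries it had 0 counts. SDC1, the main syndecan of epithelia, was at 208 CPM under siCTRL against 279, 301 and 310 CPM under siYAP in A431, a fold change of 0.51 on the log2 scale (SE 0.12, edgeR FDR = 0.024). The A431 empty vector library stood at 316 CPM, above all of these, and the SDC1 call was lost without siYAP replicate 2 (edgeR FDR = 0.0555) or replicate 3 (0.0758) and with the 2 controls together (0.18, edgeR FDR = 0.632). Over both lines SDC1 was called at 0.32 (SE 0.08, edgeR FDR = 0.0227), a call lost without A431 siYAP replicate 3 (0.0506) or with the 2 controls together (0.19, edgeR FDR = 0.229).

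ECM1, a secreted glycoprotein of skin, was at 3.71 CPM under siCTRL against 20.8, 18.6 and 24.3 CPM under siYAP in HaCaT, a fold change of 2.52 on the log2 scale (SE 0.49, edgeR FDR = 0.0101). In A431 it was at 10.7 CPM under siCTRL against 24.1, 26.1 and 26.9 CPM under siYAP and was not called. Every siYAP library lay above its siCTRL control, and over both lines the log2 fold change was 1.89 (SE 0.33, edgeR FDR = 0.00281). The empty vector libraries stood at 24.3 CPM in A431 and 15.9 CPM in HaCaT, and with the 2 controls together neither the HaCaT call (1.1, edgeR FDR = 0.14) nor the call over both lines (0.83, edgeR FDR = 0.116) was past the threshold. THBS1, a matricellular glycoprotein that is a classical YAP target, was at 370 CPM under siCTRL against 329, 289 and 336 CPM under siYAP in A431, and at 438 CPM and 319, 358 and 371 CPM in HaCaT. The siYAP libraries lay below the control in both lines, with log2 fold changes of -0.22 (SE 0.28) and -0.33 (SE 0.27) that were not called.

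**Figure D2:**
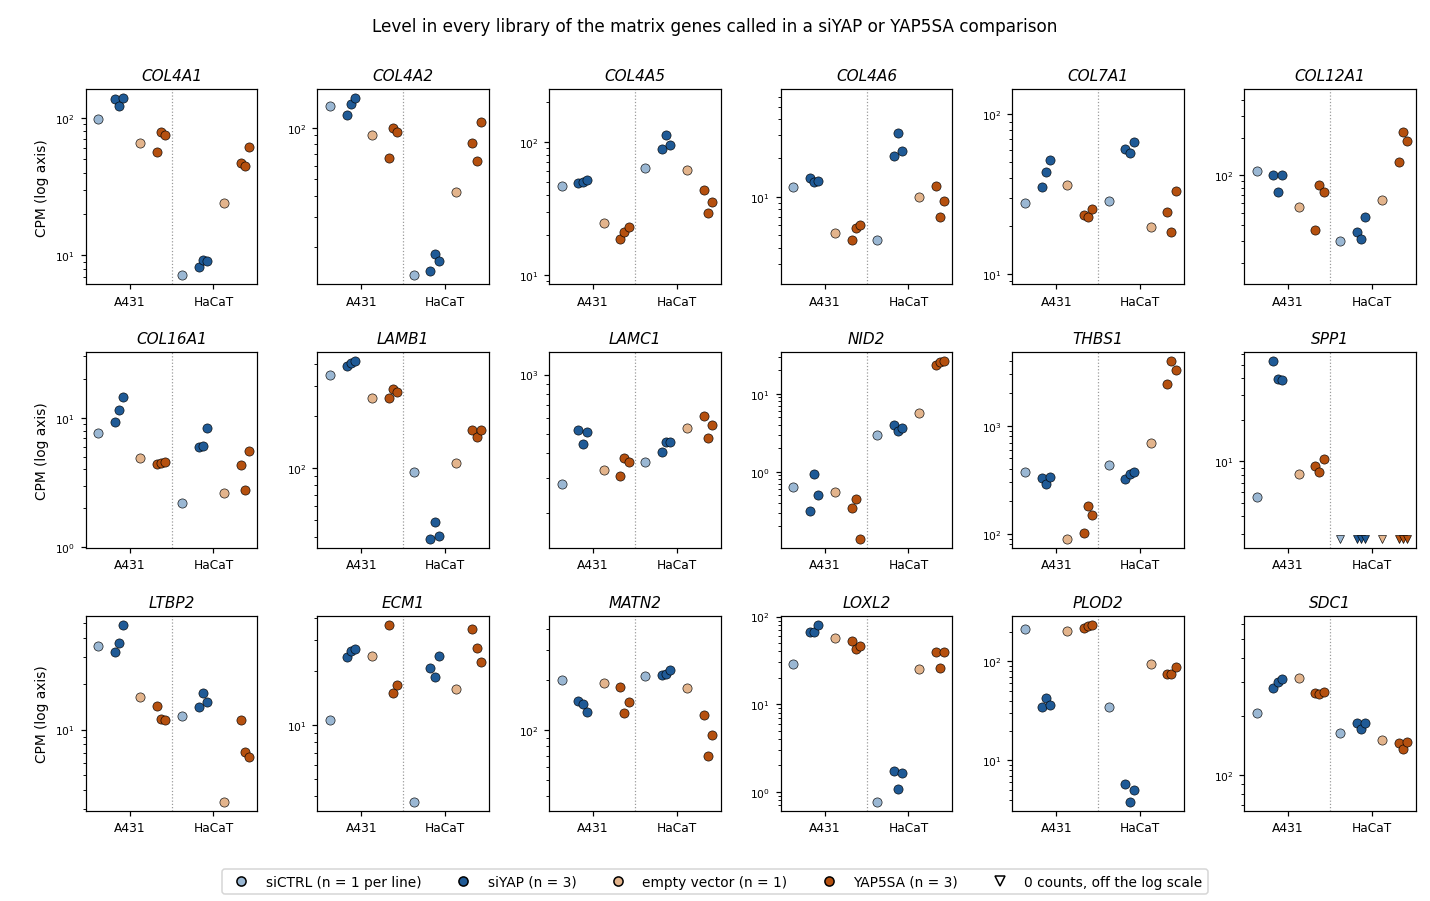
CPM (log axis) in each of the 16 libraries of the 18 matrix genes called in a siYAP or YAP5SA comparison, with A431 on the left and HaCaT on the right of each panel, and triangles for libraries with 0 counts. THBS1 with YAP5SA in HaCaT lies at 2453 to 3956 CPM, above every other library, and PLOD2 with siYAP lies below every control of its line.

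Gain of YAP function was examined by setting YAP5SA against the empty vector. In HaCaT, 7 of the 41 tested genes were called higher and 2 lower, beside 6.99% and 6.64% of all tested genes. In A431, 0 members were called, beside 0% of all tested genes. In that comparison 5 of the 41 members had an unadjusted p under 0.05 (COL6A1, COL7A1, LAMB2, THBS1 and SDC1), beside 5.64% of all tested genes, and DESeq2 also called 0 members and 3 of all tested genes. The median log2 fold change of the members was 0.48 in HaCaT, with 27 of 40 above 0, and -0.26 in A431, with 11 of 39 above 0, against medians of 0.01 and 0.02 over all tested genes.

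Of the called members in HaCaT, THBS1 had the largest log2 fold change. It was at 700 CPM with the empty vector and 2453, 3956 and 3297 CPM with YAP5SA, a fold change of 2.21 on the log2 scale (SE 0.32, edgeR FDR = 0.00312). In A431 it was at 90.1 CPM with the empty vector and 101, 181 and 150 CPM with YAP5SA, a fold change of 0.68 on the log2 scale (SE 0.29) that was not called (edgeR FDR = 0.803). YAP5SA libraries lay above the empty vector in both lines. The A431 siCTRL library stood at 370 CPM, above all YAP5SA libraries of A431. The HaCaT siCTRL library stood at 438 CPM, below all YAP5SA libraries of HaCaT. Over both lines THBS1 was the 1 member called (1.44, SE 0.22, edgeR FDR = 0.00826), beside 1.38% of all tested genes called higher and 0.661% called lower. With the replicate number as a block, COL4A1 (0.58) and MATN2 (-0.64) were called as well, which makes 3, beside 4.16% of all tested genes in either direction. With siCTRL and the empty vector as 2 controls, THBS1 was not called (0.92, edgeR FDR = 0.0874) and the 2 calls were COL4A5 (-0.77) and MATN2 (-0.70).

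Of the 48 genes, 39 had at least 1 promoter window of 250 bases before to 50 after a start in the RefSeq table (GRCh38.p14). The TEAD letters CATTCC, on either strand, were in a window of 6 of these 39 genes (COL12A1, FBN1, P4HA2, SPARC, THBS1 and THBS2), or 15.4%, beside 16.7% of all 27305 genes of the table, each counted once over its windows (14.0% of all 35116 single windows). The AP-1 letters TGANTCA were in 2 (5.13% beside 9.37% of genes) and the TATA letters TATAAA in 7 (17.9% beside 14.0% of genes). All 7 genes that rose with YAP5SA in HaCaT had a window, and THBS1 and COL12A1 held the TEAD letters. Their upstream stretches are shown because they were the members that both rose with YAP5SA and held these letters, with the match in capitals, written as GGAATG where the letters lie on the opposite strand. The match ends 40 bases before the start of THBS1 (chr15:39580829-39581078, plus strand) and 161 bases before that of COL12A1 (chr6:75206054-75206303, minus strand), both in GRCh38.p14.
THBS1: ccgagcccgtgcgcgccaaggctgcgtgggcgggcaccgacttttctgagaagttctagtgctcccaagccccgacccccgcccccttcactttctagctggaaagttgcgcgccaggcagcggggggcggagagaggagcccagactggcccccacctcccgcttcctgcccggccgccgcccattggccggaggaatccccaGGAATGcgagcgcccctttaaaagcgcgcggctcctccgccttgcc
COL12A1: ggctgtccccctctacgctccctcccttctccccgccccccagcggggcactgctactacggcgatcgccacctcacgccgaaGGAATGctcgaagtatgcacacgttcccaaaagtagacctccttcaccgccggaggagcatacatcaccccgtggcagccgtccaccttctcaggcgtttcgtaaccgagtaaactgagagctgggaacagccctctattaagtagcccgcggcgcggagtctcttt

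COL12A1 encodes a fibril-associated collagen. In HaCaT it was at 64.2 CPM with the empty vector and 127, 221 and 189 CPM with YAP5SA, a fold change of 1.48 on the log2 scale (SE 0.42, edgeR FDR = 0.0345). In A431 it was at 55.9 CPM with the empty vector and 37.0, 84.1 and 73.1 CPM with YAP5SA, so that the groups overlapped. Its call in HaCaT was lost without YAP5SA replicate 2 (edgeR FDR = 0.0512) or replicate 3 (0.0684).

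Basement membrane genes were also among those that rose in HaCaT. NID2, which encodes the linker nidogen 2, was at 5.63 CPM with the empty vector and 23.7, 25.6 and 26.1 CPM with YAP5SA, a fold change of 2.15 on the log2 scale (SE 0.45, edgeR FDR = 0.0112). In A431 all 4 libraries of this arm were under 1 CPM. LAMB1 was at 107 CPM with the empty vector and 165, 152 and 167 CPM with YAP5SA in HaCaT, a fold change of 0.59 on the log2 scale (SE 0.14, edgeR FDR = 0.0199), and at 256 CPM and 256, 286 and 276 CPM in A431. In HaCaT it thus fell with siYAP and rose with YAP5SA, each against its own control. HSPG2 at 1.45 (SE 0.46, edgeR FDR = 0.0502), AGRN at 0.96 (SE 0.31, edgeR FDR = 0.0543) and COL18A1 at 1.53 (SE 0.49, edgeR FDR = 0.0528) lay above the empty vector in every HaCaT YAP5SA library and were not called. For HSPG2 and AGRN the HaCaT siCTRL library, at 60.1 and 93.4 CPM, stood above all of these YAP5SA libraries. For COL18A1 the siCTRL library stood below all of them. With the replicate number as a block, HSPG2 (1.41, edgeR FDR = 0.0326) and AGRN (0.94, edgeR FDR = 0.0421) were called, as was P4HA2 (-0.56, edgeR FDR = 0.0323). This made 12 calls in place of 9, beside 15.2% of all tested genes called in either direction.

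LTBP2, a protein of the latent TGF-beta binding family, was at 3.34 CPM with the empty vector and 11.5, 7.15 and 6.60 CPM with YAP5SA in HaCaT, a fold change of 1.33 on the log2 scale (SE 0.34, edgeR FDR = 0.0241). The HaCaT siCTRL library stood at 12.3 CPM, above all of these, and with the 2 controls together the change was 0.13 (edgeR FDR = 0.876). MATN2, which encodes matrilin 2, fell from 178 CPM with the empty vector to 123, 69.6 and 93.6 CPM with YAP5SA, a fold change of -0.90 on the log2 scale (SE 0.23, edgeR FDR = 0.0253). In A431 the MATN2 values were 192 CPM with the empty vector and 181, 127 and 147 CPM with YAP5SA, below the control in each library and not called. With HaCaT fitted alone, COL4A2, COL4A5, LAMB1, LTBP2 and MATN2 were not called. The MATN2 call in HaCaT was also lost without YAP5SA replicate 3 (edgeR FDR = 0.0578).

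The difference of the YAP5SA effect between the lines was not called for any member (edgeR), beside 0.0682% of all tested genes called higher in HaCaT and 0.0204% called lower. Of the 41 members, 14 had an unadjusted p under 0.05, beside 22.4% of all tested genes. DESeq2 called 6 (COL4A1, NID2, HSPG2, AGRN, THBS1 and LTBP2), beside 6.32% of all tested genes. THBS1 differed by 1.53 (SE 0.40, edgeR FDR = 0.0719) and NID2 by 3.05 (SE 0.79, edgeR FDR = 0.0713). Without A431 YAP5SA replicate 1 edgeR called 4 members, and without HaCaT YAP5SA replicate 1 or 2 it called 2 and 3.

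The genes of collagen IV lie in head-to-head pairs, in which a pair of chains is transcribed in opposite directions from a common stretch. In the RefSeq table COL4A1 starts at 110307157 and COL4A2 at 110307284 of chromosome 13, with 126 bases between the starts, of which 80.2% are G or C. COL4A6 starts at 108439458 and COL4A5 at 108439838 of chromosome X, with 379 bases between them, and COL4A6 has a second listed start. The stretch between the starts of the first pair (chr13:110307158-110307283) and the 121 bases in which the upstream windows of the second pair overlap (chrX:108439588-108439708) are shown on the plus strand of GRCh38.p14, because the levels of each pair were compared within libraries.
COL4A1-COL4A2: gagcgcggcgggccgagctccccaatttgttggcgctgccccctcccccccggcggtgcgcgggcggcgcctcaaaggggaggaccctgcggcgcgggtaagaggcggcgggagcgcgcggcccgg
COL4A6-COL4A5: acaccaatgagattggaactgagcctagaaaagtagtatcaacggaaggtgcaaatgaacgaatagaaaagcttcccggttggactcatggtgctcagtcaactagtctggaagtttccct

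COL4A1 and COL4A2 both rose with YAP5SA in HaCaT. COL4A1 was at 24.0 CPM with the empty vector and 47.1, 44.3 and 60.9 CPM with YAP5SA, a fold change of 1.08 on the log2 scale (SE 0.22, edgeR FDR = 0.0101). COL4A2 was at 42.2 CPM with the empty vector and 81.4, 63.4 and 108 CPM with YAP5SA, a fold change of 1.0 on the log2 scale (SE 0.28, edgeR FDR = 0.0344), which lost its call without YAP5SA replicate 3 (edgeR FDR = 0.0718). In A431, COL4A1 was at 65.2 CPM with the empty vector and 56.1, 78.3 and 74.6 CPM with YAP5SA, and COL4A2 at 90.8 CPM and 66.6, 99.3 and 94.1 CPM, so that the groups overlapped for both. With siYAP neither gene was called in either line. The ratio of COL4A1 to COL4A2 counts stayed between 0.718 and 1.15 in the 8 A431 libraries and between 0.512 and 0.699 in the 8 HaCaT libraries, while the HaCaT level of COL4A1 ran from 7.15 to 60.9 CPM.

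The ratio of COL4A5 to COL4A6 was less steady in HaCaT. COL4A5 was at 61.2 CPM with the empty vector and 43.7, 29.5 and 35.5 CPM with YAP5SA, a fold change of -0.76 on the log2 scale (SE 0.19, edgeR FDR = 0.0227), whose call was lost without replicate 3 (edgeR FDR = 0.0519). COL4A6 was at 9.99 CPM and 12.1, 6.97 and 9.20 CPM, and the groups overlapped. With siYAP, COL4A5 was at 63.2 CPM with siCTRL and 88.7, 113 and 93.9 CPM, a fold change of 0.64 on the log2 scale (SE 0.21) that was not called (edgeR FDR = 0.0901). The ratio of COL4A5 to COL4A6 counts was 13.8 in the HaCaT siCTRL library, 6.12 in the HaCaT empty vector library and 3.51 to 4.68 in the other 14 libraries. The rise of COL4A6 with siYAP in HaCaT was therefore read against the library with the highest ratio. The siYAP effect on COL4A6 differed between the lines by 2.27 (SE 0.44, edgeR FDR = 0.0639) and was not called.

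**Figure D3:**
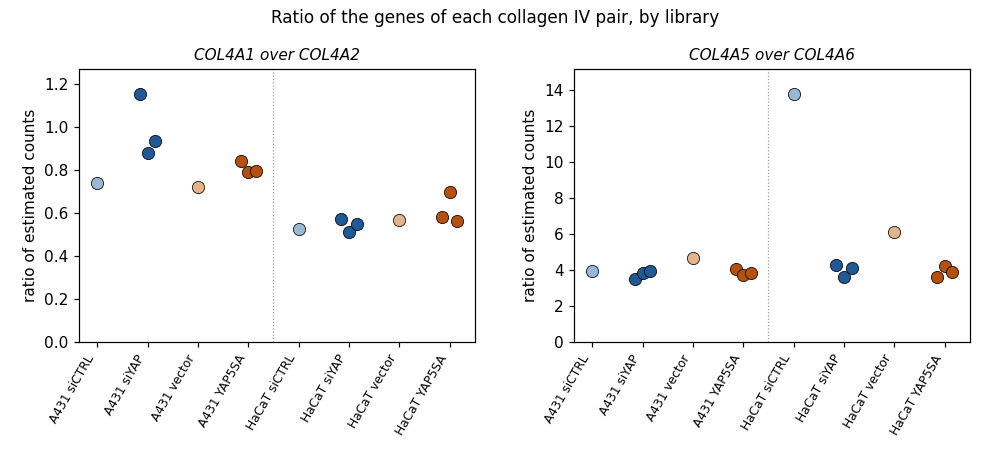
Ratio of estimated counts within each of the 16 libraries (y axis, from 0) for the head-to-head pairs COL4A1 over COL4A2 and COL4A5 over COL4A6, by group (x axis). The COL4A1 to COL4A2 ratio is lower in HaCaT than in A431 in every library, and the HaCaT siCTRL library lies apart at 13.8 for COL4A5 over COL4A6.

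The lines were compared at the level of each gene. Over all treatments 8 members were called higher in HaCaT and 22 lower, beside 27.5% and 33.1% of all tested genes. In the siYAP libraries the counts were 9 and 18, beside 26.9% and 31.7%, and in the YAP5SA libraries 10 and 19, beside 23.5% and 26.6%. Of the 6 collagen-modifying enzymes 5 were called lower in HaCaT in each of these comparisons, and of the 3 cell-surface proteoglycans all were called lower over all treatments. The median log2 difference of the members was -0.51 over all treatments, against -0.06 for all tested genes.

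The members furthest apart were at or near 0 counts in 1 line. SPP1 had 0 counts in every HaCaT library and a lowest, median and highest level of 5.53, 9.88 and 52.9 CPM in A431, at least 201-fold higher with 3 counts per HaCaT library as the limit. FBN2, which encodes fibrillin 2 of microfibrils, had 0 counts in every A431 library and 2.02, 9.74 and 17.8 CPM in HaCaT, at least 83.9-fold higher. SPARC, a secreted collagen-binding glycoprotein, had 0 to 7 counts in A431 libraries and 10.3, 55.5 and 132 CPM in HaCaT.

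The other large differences were of genes with counts in every library, though some libraries held few. The lowest count in a library was 2 for COL5A1 in HaCaT and 2 for COL6A1 in A431, within the limit of 3 counts. It was 4 for LOXL4 in HaCaT and 5 for NID2 in A431. NID2 was at 0.139, 0.474 and 0.930 CPM in A431 and 3.0, 4.79 and 26.1 CPM in HaCaT, a log2 difference of 3.66 (SE 0.26, edgeR FDR = 4.57e-08). THBS1 (1.96, SE 0.15, edgeR FDR = 7.29e-08) and COL6A1 (1.73, SE 0.36, edgeR FDR = 0.000812) were also higher in HaCaT, though their libraries overlapped, and COL6A1 was not called without HaCaT siYAP replicate 3, when its logCPM was no longer above 1. LOXL4, a lysyl oxidase, was at 3.15, 16.5 and 28.1 CPM in A431 and 0.102, 0.410 and 0.826 CPM in HaCaT, a log2 difference of -5.27 (SE 0.48, edgeR FDR = 4.07e-07). COL5A1, a chain of a minor fibrillar collagen, was at 2.86, 4.32 and 8.68 CPM in A431 and 0.0574, 0.290 and 0.595 CPM in HaCaT, a difference of -3.93 (SE 0.39, edgeR FDR = 1.07e-06). The lines did not overlap for NID2, LOXL4 or COL5A1. LOXL2 (-3.10, SE 0.15, edgeR FDR = 1.26e-09) and COL4A1 (-2.40, SE 0.11, edgeR FDR = 7.85e-10) were lower in HaCaT, with libraries of the lines that overlapped.

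Several line differences were not the same in both arms. In a comparison added after the data were seen, the line difference changed between the siYAP and the YAP5SA libraries for 19 members, 13 toward HaCaT with YAP5SA and 6 away from it, beside 21.3% and 18.9% of all tested genes. LOXL2 was lower in HaCaT by 5.56 on the log2 scale in the siYAP libraries and by 0.44 in the YAP5SA libraries, a change of 5.12 (SE 0.28, edgeR FDR = 1.11e-07). COL4A1 differed by -3.90 and -0.46, a change of 3.44 (SE 0.21, edgeR FDR = 2.81e-07), and THBS1 by 0.13 and 4.49, a change of 4.35 (SE 0.29, edgeR FDR = 4.81e-07). These comparisons also set siRNA cultures against vector cultures. The control libraries of both lines also differed between the arms. In HaCaT, LOXL2 (0.764 CPM with siCTRL and 25.5 CPM with the empty vector), COL4A1 (7.15 and 24.0 CPM) and THBS1 (438 and 700 CPM) were higher with the empty vector. HSPG2 (60.1 and 6.59 CPM) and SPARC (132 and 18.3 CPM) were lower with it. In A431, THBS1 (370 CPM with siCTRL and 90.1 CPM with the empty vector) and COL4A1 (98.4 and 65.2 CPM) were lower with the empty vector. LOXL2 (28.7 and 57.5 CPM) was higher with it. The effect of YAP and that of the arm cannot be told apart in these comparisons, and each control is 1 library.

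**Figure D4:**
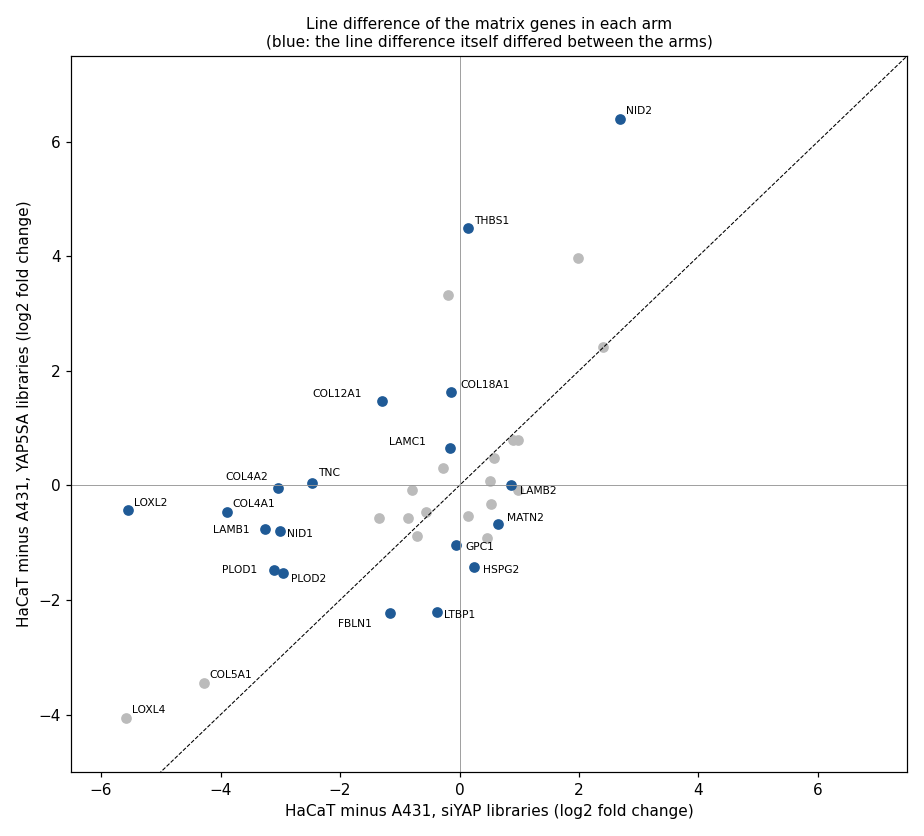
Log2 difference of HaCaT minus A431 in the siYAP libraries (x axis) and the YAP5SA libraries (y axis), 3 libraries per line and arm, for the tested matrix genes. Blue points are members whose line difference changed between the arms, and the dashed line marks equal differences; SPP1, FBN2 and SPARC, which had few or no counts in 1 line, are not plotted. LOXL2 lies at -5.56 and -0.44.

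Other matrix and collagen processing genes were listed as background. Of 65 further matrix genes 31 were tested, and of 21 further collagen processing genes 16 were tested. With siYAP over both lines, where 5.3% of all tested genes were called higher and 7.68% lower, 3 of the 31 were called higher and 0 lower, with COL9A3 (1.55, SE 0.29, edgeR FDR = 0.00458) the largest, and 1 of the 16 was called higher (PPIB, 0.40, SE 0.10, edgeR FDR = 0.0188) and 1 lower (FKBP14, -0.63, SE 0.12, edgeR FDR = 0.00595). With YAP5SA in HaCaT, beside 6.99% and 6.64% of all tested genes, 4 of the 31 were called higher and 1 lower, the largest rise being that of MFAP5 (3.15, SE 0.58, edgeR FDR = 0.00732) and the fall that of SPARCL1, which was at 0.191 CPM with the empty vector and 0 counts with YAP5SA, and 5 of the 16 were called higher, with TGM2 (2.59, SE 0.72, edgeR FDR = 0.0318) the largest. MFAP5 encodes a microfibril protein, TGM2 a transglutaminase that cross-links matrix proteins, and PPIB and FKBP14 prolyl isomerases that help collagen fold. With YAP5SA in A431, 0 genes of either list were called. With siYAP in A431, beside 1.81% and 3.78% of all tested genes, the largest rises were SPOCK1 (1.02) among the 1 called of the 31 and BMP1 (0.78) among the 2 called of the 16, and in HaCaT, beside 2.37% and 3.3%, COL9A3 (1.81) was the larger of 2 rises, with COL27A1 (-1.03) and FKBP14 (-1.18) the only falls called. The A431 empty vector library stood at 10.3 CPM for SPOCK1, where siYAP gave 9.06 to 12.3 CPM. For BMP1 it stood at 43.2 CPM, against 39.4 to 46.1 CPM with siYAP. PPIB was at 373 CPM with the empty vector in A431 (siYAP 385 to 401 CPM) and 361 CPM in HaCaT (siYAP 210 to 238 CPM). In HaCaT the siYAP libraries lay above both controls for COL9A3 and below both for FKBP14, and overlapped the empty vector for COL27A1 (2.58 CPM). Between the lines over all treatments, beside 27.5% and 33.1% of all tested genes, 7 of the 31 were called higher in HaCaT and 7 lower, and 3 and 8 of the 16, with FN1 (2.41), the gene of fibronectin, and LOXL1 (2.40), a lysyl oxidase, the largest toward HaCaT, though FN1 differed by 0.43 (edgeR FDR = 0.392) in the siYAP libraries and by 5.77 (edgeR FDR = 2.82e-07) in the YAP5SA libraries, while MFAP2 and PCOLCE2 had 0 counts in all 4 HaCaT libraries of the siRNA arm.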

How the data were processed

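The data were 16 RNA-seq libraries of A431 and HaCaT cells. The authors trimmed paired reads to 75 bases, mapped them to RefSeq genes with RSEM and deposited the estimated count of read pairs per gene, neither scaled nor filtered. The submitters' processing notes name RSEM 1.2.11 and hg19, whereas the paper names another RSEM version. Counts were rounded and tested in R 4.3.3 with edgeR 4.0.16 (TMM, quasi-likelihood test, 1 model of 8 groups, 8 residual degrees of freedom, genes with a mean above 10 counts, Benjamini-Hochberg adjustment). The lone control libraries are assumed to vary like the triplicates. A gene was called at FDR under 0.05 and logCPM above 1. The standard error is the log2 fold change divided by the square root of F. CPM values are TMM-scaled. Promoters came from RefSeq (GRCh38.p14) and transcript lengths from GENCODE v29.

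Genes with values in every library are those called in a siYAP or YAP5SA comparison or in the difference of an effect between the lines, and both collagen IV pairs. For the lines, the 5 largest differences in each direction are given, and for the other lists the largest called rise and fall. THBS1 with siYAP, COL1A1, PLOD1 and genes near the threshold were picked with their values in view. The members and lists were chosen with earlier results of these data known. The 3 libraries of each treated group differed by more than sampling noise. Deviations of same-numbered YAP5SA libraries of the 2 lines correlated at 0.101 to 0.280, while A431 replicate 2 and HaCaT replicate 3 correlated at 0.140. Those of the siYAP libraries of the 2 lines correlated at 0.0362 to 0.178 for the same number and at -0.133 to 0.00854 for different numbers. Over all groups, 5 of 18 same-numbered pairs and 2 of 36 other pairs correlated above 0.1. Pairing by number was thus neither established nor excluded. The reported model had no pairing, and the replicate block was fitted only as an alternative. Scripts were tested on simulated data. The alternatives were DESeq2 1.42.0, RLE size factors, other count filters, FDR alone, the 2 control libraries of a line pooled, each line alone, a replicate block and each treated library left out.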

Additional observations from a re-analysis of the deposited data

Results flagged for a closer look

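LAMB1 was picked out because the effect of siYAP on it differed between the lines by the test of that difference. The effect in HaCaT minus that in A431 was -1.39 on the log2 scale (edgeR FDR = 0.0183), with all 3 siYAP libraries below siCTRL in HaCaT and all 3 above it in A431.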

How the results depend on the processing

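Count of called members by setting: with DESeq2, it was 8 in place of 5 for siYAP in A431, 14 in place of 9 for YAP5SA in HaCaT, 7 in place of 1 for YAP5SA over both lines, 3 in place of 1 for the difference of the siYAP effect and 6 in place of 0 for that of the YAP5SA effect. In the same order, DESeq2 called 9.52%, 18.6%, 7.24%, 1.91% and 6.32% of all tested genes in either direction, so its calls also rose outside the members. With siCTRL and the empty vector as 2 controls it was 2 for siYAP in A431 (PLOD2 and SPP1) and 2 for YAP5SA over both lines, and LOXL2 with siYAP over both lines turned to -1.21. With each line fitted alone it was 4 for YAP5SA in HaCaT. With more than 10 counts in every library it was 2 for YAP5SA over both lines and 2 for the difference of the siYAP effect. The replicate block gave 3 in place of 1 for YAP5SA over both lines, beside 4.16% of all tested genes, and changed no other count of called members by over 1.5 times. With 1 treated library left out, the counts ran from 3 to 4 for siYAP in A431, 4 to 4 in HaCaT and 8 to 10 over both lines, from 0 to 0 for YAP5SA in A431, 5 to 13 in HaCaT and 1 to 7 over both lines, from 0 to 1 and 0 to 4 for the differences of the siYAP and YAP5SA effects, and from 29 to 31, 25 to 26 and 24 to 29 for the lines over all treatments, in the siYAP libraries and in the YAP5SA libraries. The counts for siYAP, YAP5SA and their differences moved by over 1.5 times without A431 siYAP replicate 3 (3 for siYAP in A431), without HaCaT YAP5SA replicate 3 (5 for YAP5SA in HaCaT), and without A431 YAP5SA replicate 1, HaCaT YAP5SA replicate 1 or HaCaT YAP5SA replicate 2 (5, 7 and 2 for YAP5SA over both lines, and 4, 2 and 3 for the difference of the YAP5SA effect). The difference of the siYAP effect had 0 without A431 siYAP replicate 2 or 3 or HaCaT siYAP replicate 3. The causes were not tested. The comparison of line differences between the arms was not run under these alternatives. At 1 control library per arm and line, the spread between controls was not measured, and genes at a few counts have no usable fold.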

Other observations

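The 7 letters TTCTTAA and CTTCTTA were searched for in 3' UTRs, for 1 transcript a gene, that with the longest coding part (GENCODE v29, UTRs of at least 50 bases). These letters had been chosen from the siYAP fold changes of the same table, so that their counts support nothing on their own. A match was in 15 of the 41 tested members, or 36.6%, beside 26.6% of 12093 tested genes. PLOD2, which fell with siYAP in both lines, held 3 matches in a 3' UTR of 1277 bases, and LAMB1, which fell in HaCaT, held 0 in 148 bases. COL5A2 held 4 and SDC4 held 2, and neither was called with siYAP. LOX also held 3 but was under the logCPM limit and could not be called.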
